A study of Mus musculus with 5 samples.

Results

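10 genes of bone morphogenetic protein (BMP) signalling were followed in CD31-positive cells of the infarcted mouse heart. They were chosen by symbol, as a set defined by function, with earlier results of these data known. They are the ligand genes Bmp2, Bmp4 and Bmp6, the receptor genes Acvrl1 (which encodes ALK1), Bmpr2 and Eng (endoglin), the inhibitory Smad gene Smad6, and Id1, Id2 and Id3, which encode inhibitors of DNA binding. All 10 of these genes were found among the 17638 genes of the table and all 10 passed the filter on low values, as did 14339 genes in all.

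The libraries were polyadenylated RNA of cells labelled CD31+ endothelial, from hearts of 2-month-old mice with a C57BL/6 background, 5 days after myocardial infarction. There were 3 control libraries and 2 Tbx1cko libraries, and all 5 came from infarcted hearts, with no uninfarcted group used here. The series describes Tbx1cko as an endothelial knockout of Tbx1, a T-box transcription factor gene, and the labels name neither the Cre driver nor the alleles of the controls. The sources used here do not say whether each library had its own animal or pool, so the tests rest on the spread from library to library, which may be technical.

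BMP ligands act on pairs of type I and type II serine/threonine kinase receptors. In endothelial cells the type I receptor ALK1, with BMPR2 as its type II partner and endoglin as a co-receptor, responds to circulating ligands and phosphorylates Smad1, Smad5 and Smad9. Id genes are direct targets of these Smads. Id proteins carry a helix-loop-helix domain but no DNA-binding region, so they take E proteins out of DNA-binding dimers. Smad6 is induced by the same signal and inhibits it. Loss-of-function mutations of ENG and ACVRL1 cause hereditary haemorrhagic telangiectasia, and those of BMPR2 cause heritable pulmonary arterial hypertension.

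In the GENCODE M21 annotation of GRCm38 all 10 are protein-coding genes. The ligand genes lie on chromosome 2 from 133552159 to 133562885 on the plus strand (Bmp2), chromosome 14 from 46383520 to 46390669 on the minus strand (Bmp4) and chromosome 13 from 38345107 to 38500302 on the plus strand (Bmp6). The receptor genes lie on chromosome 15 from 101128522 to 101145336 on the plus strand (Acvrl1), chromosome 1 from 59763400 to 59879014 on the plus strand (Bmpr2) and chromosome 2 from 32646595 to 32682669 on the plus strand (Eng). Smad6 lies on chromosome 9 from 63953076 to 64022059 on the minus strand. The Id genes lie on chromosome 2 from 152736251 to 152737410 on the plus strand (Id1), chromosome 12 from 25093799 to 25097140 on the minus strand (Id2) and chromosome 4 from 136143497 to 136145755 on the plus strand (Id3).

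RefSeq promoter windows on GRCm38.p6, from 250 bases before to 50 bases after the annotated start, were matched by symbol for 7 of the 10 genes, with no entry matched for Bmp2, Acvrl1 and Id1. The starts of 4 of them (Bmp4, Eng, Smad6 and Id2) coincide with the first base of a GENCODE M21 transcript. Of these, 3 are shown, 1 each for a co-receptor, an inhibitory Smad and an Id target, and the ligand gene Bmp4 is left out for brevity. They lie at chr2:32646345-32646644 on the plus strand (Eng), chr9:64022010-64022309 on the minus strand (Smad6) and chr12:25096043-25096342 on the minus strand (Id2). Capitals mark the Smad1/5 box GGCGCC, which is its own reverse complement, and the Smad4 core GTCT in either orientation, so that AGAC is the same core on the opposite strand.
Eng: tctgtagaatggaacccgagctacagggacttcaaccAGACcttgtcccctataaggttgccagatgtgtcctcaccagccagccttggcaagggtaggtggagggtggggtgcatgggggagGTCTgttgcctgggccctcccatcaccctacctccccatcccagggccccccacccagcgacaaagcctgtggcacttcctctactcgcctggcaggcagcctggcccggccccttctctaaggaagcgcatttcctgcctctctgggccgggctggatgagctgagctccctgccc
Smad6: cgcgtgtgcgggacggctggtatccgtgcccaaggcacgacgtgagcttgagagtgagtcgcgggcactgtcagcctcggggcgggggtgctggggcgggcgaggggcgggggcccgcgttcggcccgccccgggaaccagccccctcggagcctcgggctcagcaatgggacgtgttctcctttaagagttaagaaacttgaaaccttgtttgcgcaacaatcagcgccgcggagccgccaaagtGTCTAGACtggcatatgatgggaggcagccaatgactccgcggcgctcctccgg
Id2: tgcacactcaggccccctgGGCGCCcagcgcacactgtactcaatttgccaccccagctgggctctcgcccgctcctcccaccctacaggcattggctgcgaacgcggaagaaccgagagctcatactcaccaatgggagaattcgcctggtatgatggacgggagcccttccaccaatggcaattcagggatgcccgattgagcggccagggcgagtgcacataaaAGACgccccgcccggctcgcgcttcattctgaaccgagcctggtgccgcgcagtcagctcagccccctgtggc

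The Smad6 window held GTCTAGAC, the palindromic Smad-binding element, which is made of 2 GTCT cores and overlaps both of its GTCT matches. It began 4 bases before the annotated start. This element was looked for after the sequence had been seen, and 0.213% of 32851 RefSeq promoter windows of the same length hold it. GGCGCC was found in the windows of Id2 and Bmpr2, and in 11.9% of all windows. GTCT was found in 6 of the 7 windows (all but that of Bmpr2) and in 88.0% of all windows, and the T-box half-site AGGTGTGA, searched on both strands, in 0 of the 7 windows and 1.28% of all windows. These matches describe letters in a short window and not binding.

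Tbx1 had 64.4 to 72.7 normalised reads in the controls and 17.3 to 18.3 in Tbx1cko, so the libraries go with their labels. All 10 pan-endothelial marker genes were detected. Mural, macrophage and cardiomyocyte markers were detected as well, with the sums given further on, and fewer cells of a type and less RNA per cell cannot be told apart in these bulk libraries. Library depth was 14689782 to 18617284 recovered reads. Control replicate 2 stood apart, with a correlation across genes of 0.859 to 0.889 with the other 4 libraries, which correlated at 0.980 to 0.988 with each other. Its deviation from the others went with the GC content of the transcripts (Spearman rho 0.801 across 13748 genes that share this library). The differences of the 10 genes are therefore given with and without it.

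Values are given in the order of the replicate numbers, as normalised read counts, that is, reads divided by a size factor of the library. Differences are Tbx1cko minus control on log2(normalised count + 1), from limma fitted to all 14339 genes, and an adjusted p of 0.05 was the threshold. None of the 10 genes passed it, with all libraries or without control replicate 2, and the smallest adjusted p of the 10 was 0.762 and 0.398 in these fits. Tbx1 itself, at a log2 difference of -1.89 with all libraries, did not pass it either (limma adjusted p = 0.762 and 0.214). DESeq2 with all libraries gave Tbx1 an adjusted p of 0.0349. Over all genes tested, 0 (0%) passed with all libraries, where DESeq2 called 4 and edgeR 0, and 3 genes (0.0209%) passed without control replicate 2. At an unadjusted p under 0.05 there were 0 of the 10 genes against 1.74% of all genes with 5 libraries.

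The values leaned to one side. With all 5 libraries 9 of the 10 genes had a lower fitted mean in Tbx1cko, with a median log2 difference of -0.50 beside 0.03 over all genes tested. Without control replicate 2 all 10 were lower and the median was -0.23 beside 0.02. Of all 14339 genes tested, 6831 were lower with all libraries and 6694 without control replicate 2. With 5 libraries, both Tbx1cko values lay below every control for 5 of the 10 genes (Bmp2, Bmp4, Bmp6, Eng and Id3), against 13.9% of all genes. They lay above every control for 0 of the 10, against 14.2% of all genes. Without control replicate 2, both lay below the other 2 controls for 6 of the 10, the same 5 and Id2, against 17.8% of all genes. These genes belong to 1 pathway and were read in the same libraries, so they are not independent replicates of a difference.

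**Figure D1:**
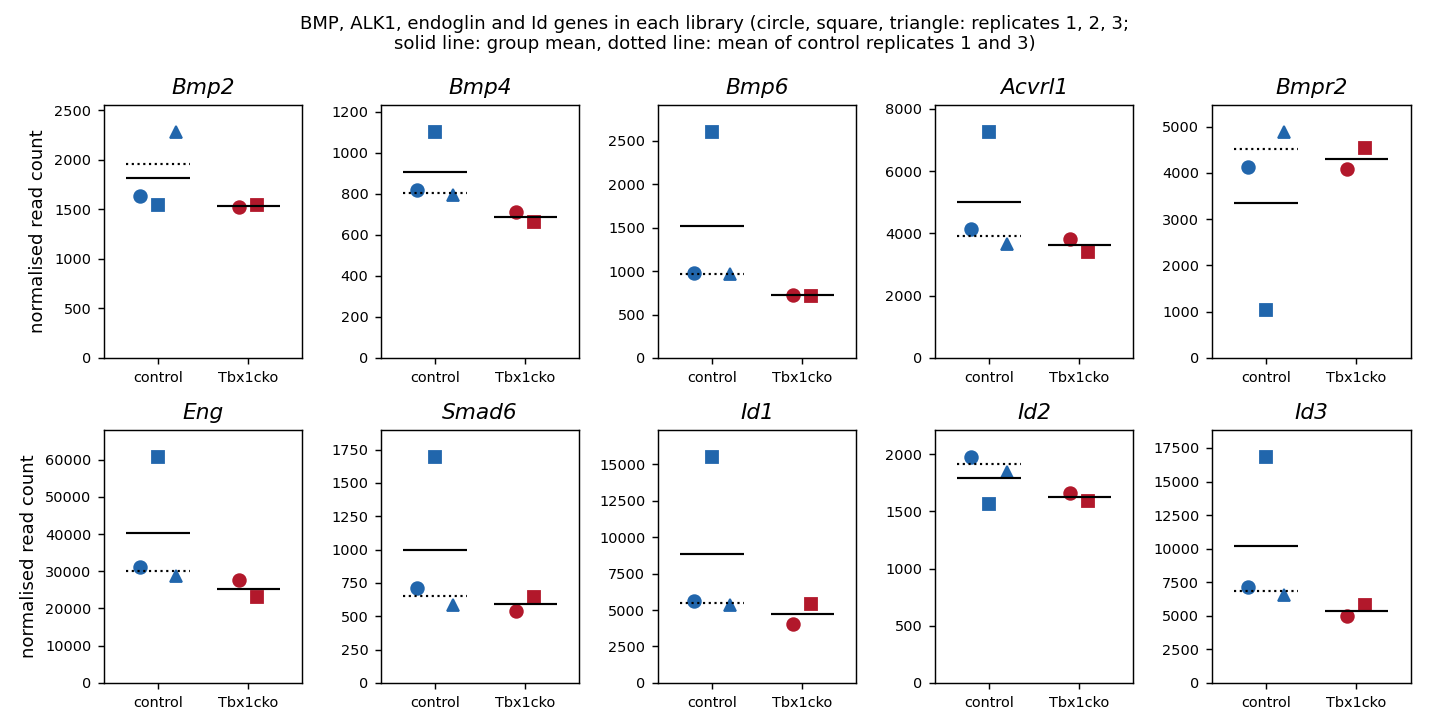
Normalised read count (vertical axis, from 0) of each of the 10 genes in each library, with controls in blue and Tbx1cko in red. Control replicate 2, the blue square, is the highest of the 5 libraries for 7 genes and the lowest for Bmpr2 and Id2. The other 4 libraries lie closer together, except for Bmp2 and Id2. For Bmp2 control replicate 3 stands apart, and for Id2 control replicate 2 lies close to Tbx1cko replicate 2.

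Among the ligands, Bmp6 encodes a BMP made by endothelial cells that is best known for its control of hepcidin and iron. Bmp6 had 974, 2601 and 963 normalised reads in the controls against 730 and 716 in Tbx1cko. Both Tbx1cko values were below all controls, and control replicates 1 and 3 were nearly equal while replicate 2 was far above them. Mean counts were 1513 ± 943 (SD, n = 3) and 723 ± 9.51 (SD, n = 2), a log2 difference of -0.90 (SE 0.488, limma adjusted p = 0.762). Without control replicate 2 the control mean was 968 ± 8.06 (SD, n = 2) and the difference -0.42 (SE 0.125, limma adjusted p = 0.398), with a 95% interval from -0.70 to -0.15. That is 1.34-fold lower, the largest difference of the 10 genes in that fit. Bmp6 had as few as 703 reads in a library, where counting alone would give larger SDs than 8.06 and 9.51. These SDs therefore understate the spread. A 224-base stretch of Bmp6 exons overlaps exons of Txndc5 on the opposite strand, and the strand setting of the counting was not stated in the sources used here.

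Bmp4, a ligand of mesoderm and vessel development, had 817, 1101 and 791 normalised reads in the controls against 709 and 663 in Tbx1cko. The groups did not overlap, and control replicate 2 was the highest. The log2 difference was -0.38 (SE 0.233, limma adjusted p = 0.762) and -0.23 (SE 0.129, limma adjusted p = 0.745) without that library. Bmp2, a ligand needed for valve formation in the embryonic heart, had 1639, 1542 and 2284 in the controls against 1522 and 1541 in Tbx1cko. Its groups were separated by less than 1 normalised read, since control replicate 2 sat beside both Tbx1cko values and only control replicate 3 was high. The difference was -0.23 (SE 0.239) with all libraries and -0.34 (SE 0.154, limma adjusted p = 0.673) without control replicate 2, so that leaving it out enlarged the difference of Bmp2 while it reduced those of Bmp4 and Bmp6.

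Of the receptors, Eng was the most abundant. Eng had 31270.0, 60809.9 and 28809 normalised reads in the controls against 27636 and 23011 in Tbx1cko. Both Tbx1cko values were below the controls, and control replicate 2 was 2.02 times the mean of the other 2. Mean counts were 40296 ± 17808 (SD, n = 3) and 25323 ± 3271 (SD, n = 2). The log2 difference was -0.59 (SE 0.364, limma adjusted p = 0.762) with all libraries and -0.25 (SE 0.158, limma adjusted p = 0.782) without control replicate 2, with a 95% interval from -0.60 to 0.10. Eng exons share 61 bases with exons of Fpgs on the opposite strand.

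Acvrl1, the ALK1 gene, had 4134, 7266 and 3675 in the controls against 3826 and 3417 in Tbx1cko. Here Tbx1cko replicate 1 lay between control replicates 1 and 3, so the groups overlapped. Its difference was -0.41 (SE 0.334) with all libraries and -0.11 (SE 0.125, limma adjusted p = 0.890) without control replicate 2, with a 95% interval from -0.38 to 0.17. The ratio of Eng to Acvrl1 normalised reads was 7.56, 8.37 and 7.84 in the controls against 7.22 and 6.73 in Tbx1cko, lower in both Tbx1cko libraries than in any control. This ratio was not tested, and no share over other gene pairs was computed. The other gene-to-gene ratios given further on overlapped between the groups.

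Bmpr2, the type II receptor gene, was the only 1 of the 10 with a higher fitted mean in Tbx1cko, and that sign came from a single library. It had 4137, 1035 and 4887 normalised reads in the controls against 4084 and 4528 in Tbx1cko. Control replicate 2 was 4.36-fold lower than the mean of the other 2 controls, and the Tbx1cko values overlapped those 2. The log2 difference was 0.64 (SE 0.699, limma adjusted p = 0.763) with all libraries, with a 95% interval from -1.11 to 2.40. It was -0.06 (SE 0.130, limma adjusted p = 0.945) without control replicate 2, with an interval from -0.35 to 0.22.

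**Figure D2:**
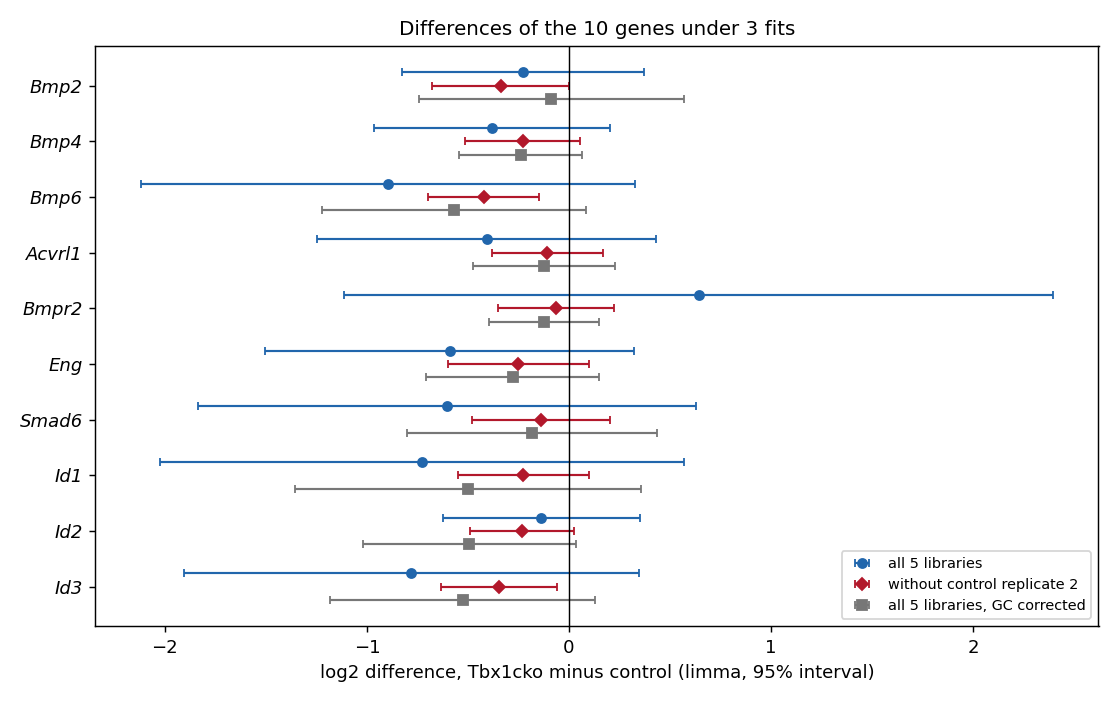
Fitted log2 difference, Tbx1cko minus control, with its 95% interval (limma) for each gene, with all 5 libraries (blue), without control replicate 2 (red) and with all 5 libraries after correction for GC content (grey). All blue and grey intervals span 0, and the red ones of Bmp6 and Id3 do not, although no adjusted p passed 0.05.

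Smad6, the inhibitory Smad whose window holds the palindromic element printed above, had 713, 1697 and 586 normalised reads in the controls against 537 and 642 in Tbx1cko. The groups overlapped, because Tbx1cko replicate 2 was above control replicate 3. The log2 difference was -0.60 (SE 0.491, limma adjusted p = 0.762) and -0.14 (SE 0.155, limma adjusted p = 0.887) without control replicate 2. After correction for GC content it was -0.18 with all libraries and 0.04 without control replicate 2, so its sign was not stable.

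Id3, a target gene strongly expressed in endothelium, had 7118, 16848 and 6544 normalised reads in the controls against 4957 and 5813 in Tbx1cko. Both Tbx1cko values lay below all controls. Mean counts were 10170.3 ± 5790.4 (SD, n = 3) and 5385 ± 605 (SD, n = 2), a log2 difference of -0.78 (SE 0.449, limma adjusted p = 0.762). Without control replicate 2 the control mean was 6831 ± 406 (SD, n = 2) and the difference -0.35 (SE 0.130, limma adjusted p = 0.569), or 1.27-fold lower, with a 95% interval from -0.63 to -0.06. Bmp6 and Id3 were the 2 of the 10 genes with an unadjusted limma p under 0.05 in that fit, both lower. Over all genes, 1070 of 14339 were under it in either direction, and 4.07% on the lower side.

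Id1, the target most used as a readout of BMP and ALK1 signalling, had 5617, 15535 and 5353 in the controls against 4060.0 and 5414 in Tbx1cko. Tbx1cko replicate 2 lay between control replicates 1 and 3, so the groups overlapped, and only Tbx1cko replicate 1 was below all controls. The log2 difference was -0.73 (SE 0.517, limma adjusted p = 0.762) and -0.23 (SE 0.147, limma adjusted p = 0.788) without control replicate 2, with a 95% interval from -0.55 to 0.10. The Id1 to Id3 ratio of normalised reads varied little, at 0.789, 0.922 and 0.818 in the controls against 0.819 and 0.931 in Tbx1cko.

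Id2, a family member also known from lymphoid and dendritic cell development, followed another pattern. It had 1980, 1564 and 1846 normalised reads in the controls against 1664 and 1591 in Tbx1cko. Control replicate 2 was the lowest of the 5 libraries, so that the groups overlapped through it and were separate without it. The log2 difference was -0.14 (SE 0.195, limma adjusted p = 0.787) with all libraries and -0.23 (SE 0.118, limma adjusted p = 0.714) without control replicate 2. After correction for GC content it was -0.49 (limma adjusted p = 0.821) with all libraries and -0.30 (limma adjusted p = 0.609) without control replicate 2. The ratio of Id1 to Id2 was 9.93 in control replicate 2 and between 2.44 and 3.40 in the other 4 libraries.

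**Figure D3:**
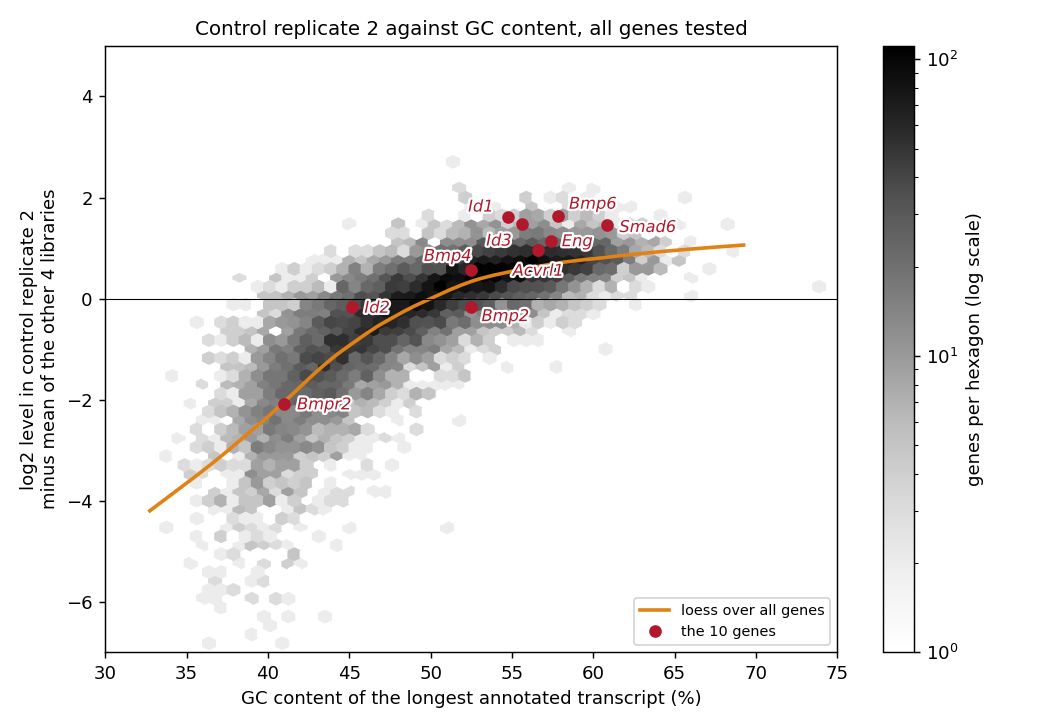
Log2 level in control replicate 2 minus the mean of the other 4 libraries (vertical axis) against the GC percent of the longest transcript (horizontal axis), with all genes as grey hexagons on a log colour scale, the loess curve in orange and the 10 genes in red. Bmpr2, at 41.0% GC, lies on the curve at -2.09, and Id1, Bmp6 and Id3 lie above it by 0.90 to 1.09.

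How far control replicate 2 stood from the other 4 libraries differed from gene to gene. Bmpr2, with a GC content of 41.0%, was lower there by a log2 value of -2.09, and the curve over all genes gave -2.04 at that GC. Smad6 at 60.8% GC was at 1.46 against 0.82 on the curve, and Bmp6 at 57.8% was at 1.64 against 0.70. Id1 at 54.7% and Id3 at 55.6% were at 1.62 and 1.48 against 0.52 and 0.58, which put Id1 at the 99.0th percentile of all genes. Id2 at 45.1% was at -0.17 against -0.90. Of the 10 genes, 8 lay above the curve, and Bmp2 was the farthest below it, at -0.16 against 0.34. With GC content corrected and all libraries, Bmp6 was at -0.57, Id3 at -0.53, Id1 at -0.50, Eng at -0.28 and Bmp4 at -0.24, and Acvrl1, Bmpr2 and Bmp2 were at -0.12, -0.12 and -0.09. The median of the 10 corrected log2 differences was -0.26 with all libraries and -0.18 without control replicate 2, and that of all genes -0.01 and 0.01.

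Levels of different genes can be compared only per length. Scaled by exonic length to TPM (a level per transcript length in which every library has the same total), Eng stood at 2161 ± 811 over the 3 controls and 1424 ± 160 over the 2 Tbx1cko libraries (mean ± SD). Id1 stood at 1640 ± 971 and 932 ± 204, and Id3 at 1227 ± 618 and 686 ± 88.6. In each of the 5 libraries these 3 genes and Acvrl1, at 256 ± 82.6 and 193 ± 12.2, kept the same order from Eng down to Acvrl1. The control SDs of Eng, Id1 and Id3 overlap, so the order among them rests on its repetition within libraries.

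Below them came Id2 at 163 ± 27.1 TPM in controls, Bmp2 at 114 ± 31.8, Bmp4 at 88.1 ± 11.2, Bmp6 at 83.6 ± 46.7, Smad6 at 67.2 ± 36.5 and Bmpr2 at 42.2 ± 27.0 (SD, n = 3 each). Id2 and Bmp2 differed by more than the SD of either, and from Bmp2 down each gene differed from the next by less than the larger of their SDs. In control replicate 2 alone Bmp6 and Smad6 reached 138 and 109 TPM, and Bmpr2 was at 11.9. The exonic length used for Bmpr2, 17983 bases, is that of all annotated exons together, which lowers its TPM if the longest ones are little used.

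**Figure D4:**
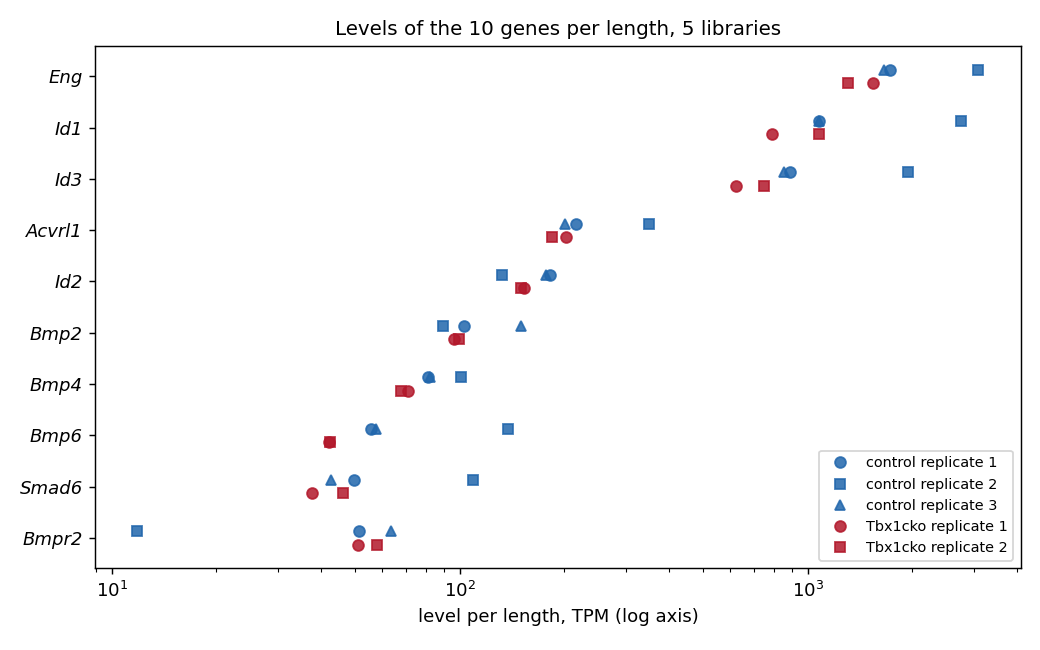
Level per length in TPM (horizontal log axis) of the 10 genes in each library, with controls in blue and Tbx1cko in red and 1 marker shape per replicate number. Eng, Id1 and Id3 lie between 623 and 3097 TPM in all libraries and the other 7 genes at or below 351.

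Nearest in pattern to Id1 over the 5 libraries, by the root mean square difference of centred log2 values, were Cbx7 (0.08), Gm37352 (0.09) and Coro6 (0.10), and Id3 was next among the 10 genes at 0.10. Nearest to Eng were Jup (0.02), Tpm2 (0.03) and Unc119b (0.04). The nearest of the other 9 genes was Acvrl1 for Eng (0.11), and Id3 for Bmp6 (0.11) and Smad6 (0.11). Among 10402 genes with a mean of at least 100, Acvrl1 ranked only 125th in nearness to Eng. Id3 ranked 8th for Bmp6 and 14th for Smad6. Bmpr2 was the farthest from each of the other 9, at 0.78 or more. In Cbx7, as in Id1, control replicate 2 was the highest library, with 540 and 466 in control replicates 1 and 3, 1362 in replicate 2, and 403 and 479 in Tbx1cko.

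Summed cell type markers also differed between the groups. The summed count of the 10 pan-endothelial genes was 179930 to 238467 in controls and 167740 to 178087 in Tbx1cko, with 8 of 10 genes lower. That of 10 mural markers was 48702 to 60776 and 40088 to 41911 (9 of 10 lower), that of 5 endocardial markers 11163 to 15979 and 8637 to 9215 (5 of 5 lower) and that of 7 lymphatic markers 11205 to 14484 and 8168 to 9568 (7 of 7 lower). Each of these 4 sums was below every control in both Tbx1cko libraries. Platelet markers, 5 in all, were above, at 1355 to 2362 in controls and 3216 to 3676 in Tbx1cko (1 of 5 lower). Among single genes tested, 13.9% lay below every control and 14.2% above, and 6831 of 14339 had a lower fitted mean.

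The other marker lists overlapped between the groups, except cardiomyocyte markers without control replicate 2. Sums of 8 fibroblast markers were 21312 to 37717 and 19509 to 39711 (4 of 8 lower), those of 9 macrophage and monocyte markers 64519.5 to 103730 and 98374 to 100290 (1 of 9 lower), and those of 5 pan-leukocyte markers 8041 to 15037 and 14448 to 15583 (0 of 5 lower). Sums of 9 cardiomyocyte markers were 6333 to 11424 and 7798 to 8592, where control replicate 2 held the 11424 and the other 2 controls at most 6884. Those of 5 lymphocyte markers were 247 to 265 and 240 to 261 (3 of 5 lower). The counts of lower markers changed with control replicate 2 left out. They were then 7 of 8 for fibroblast, 5 of 9 for macrophage and monocyte, 0 of 5 for pan-leukocyte and 4 of 5 for lymphocyte markers. Of the cardiomyocyte markers, 4 of 9 were lower with all libraries and 0 of 9 without control replicate 2. The part of these cell types in the differences of the BMP genes was not tested.

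Divided by the pan-endothelial sum of their library, 4 of the 10 genes (Bmp4, Bmp6, Eng and Id3) were below every control in both Tbx1cko libraries, against 6.83% of all genes on this scale. With control replicate 2 left out these 4 and Id2 were below both other controls, 5 of the 10 against 10.2% of all genes. Bmp6 per 1000 pan-endothelial counts was 5.16, 10.9 and 5.35 in the controls against 4.10 and 4.27 in Tbx1cko, and Id3 was 37.7, 70.7 and 36.4 against 27.8 and 34.7. With control replicate 2 left out, this ratio differed on the log2 scale by -0.33 for Bmp6, -0.25 for Id3, -0.16 for Eng and -0.14 for Bmp4. Acvrl1 (-0.02), Bmpr2 (0.03) and Smad6 (-0.05) were close to 0 on this scale. Bmp2 was at -0.24 and Id1 at -0.13, both with overlapping groups, and Id2 at -0.14. With all libraries Bmpr2 (0.86) and Id2 (0.08) were higher on this scale and the others lower, Bmp2 by -0.01. These ratios were computed after the counts had been seen and carry no test.

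A further 53 genes of the pathway were listed by role. Of these, 36 were tested, 4 were below the filter and 13 were not found by symbol among the 17638 genes. The ALK1 ligand genes Gdf2 (BMP9) and Bmp10 were among those 13, so no values were at hand for them. With all 5 libraries 24 of the 36 were lower, 12 higher and 0 passed the threshold, with a median of -0.26. Without control replicate 2, 27 were lower, 9 higher and 0 passed, with a median of -0.17. In these fits 6831 and 6694 of all 14339 genes were lower. Both Tbx1cko values lay below every control for 9 of the 36 and above for 1, against 13.9% and 14.2% of all genes. Without control replicate 2 they lay below both other controls for 13 and above for 2, against 17.8% and 19.7% of all genes.

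Only 2 other ligand genes were tested, both weakly expressed. Bmp5 had 38.4, 36.8 and 20.7 normalised reads in the controls against 26.5 and 13.2 in Tbx1cko, and Gdf6 had 22.6, 12.0 and 14.1 against 15.5 and 31.6, with overlapping groups for both. Among 7 other receptors and co-receptors, 5 were lower and 2 higher. Rgma, a BMP co-receptor of the repulsive guidance family, had 93.8, 164 and 59.3 in the controls against 57.6 and 30.6 in Tbx1cko. The fitted log2 difference was -1.19 (SE 0.537, limma adjusted p = 0.762), and -0.81 with control replicate 2 left out. Its relative Rgmb differed by -0.26 and the type II receptor gene Acvr2b by -0.54, both with overlapping groups.

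In the Smad list 4 of 7 other genes were lower and 3 higher. The signal-carrying Smad1 and Smad5, named after their values were seen, differed by 0.04 and 0.25, and by -0.09 and -0.04 without control replicate 2. Smad7, the second inhibitory Smad, had 1536, 2356 and 1265 normalised reads in the controls against 907 and 1412 in Tbx1cko. The fitted log2 difference was -0.55, and -0.30 with control replicate 2 left out, with overlapping groups. The ubiquitin ligase gene Smurf1 differed by -0.28 and -0.08 in these fits, and Smad9, at 12.8 to 61.6 normalised reads, by -0.82 and -0.36.

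Of 11 antagonists and modulators, 8 were lower and 3 higher, and 5 lay below every control in both Tbx1cko libraries, against 13.9% of all genes. The same counts held without control replicate 2, where the share of all genes was 17.8%. Nog, which encodes the secreted BMP antagonist noggin, rested on 12, 29 and 14 recovered reads in the controls against 2 and 3 in Tbx1cko. That is 0.133 times the control rate, with an exact 95% interval of 0.0415 to 0.330 that covers counting error only. Control replicate 2 held 29 of the 55 control reads behind that rate. The limma log2 difference was -2.40 (SE 0.555, adjusted p = 0.762) and depends on the pseudocount. With control replicate 2 left out it was -2.08 (SE 0.630, limma adjusted p = 0.407), from means of 13.4 and 2.44 normalised reads. Crim1, a membrane-bound BMP regulator of vessels, had 4203, 5110 and 4034 normalised reads in the controls against 3321 and 3181 in Tbx1cko. The fitted log2 difference was -0.45 (SE 0.189, limma adjusted p = 0.762), and -0.34 with control replicate 2 left out. Chrd, the chordin gene, had 56.5, 71.7 and 52.7 in the controls against 33.8 and 43.8 in Tbx1cko.

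Among 6 other target genes 5 were lower and 1 was higher, and 4 were lower and 2 higher without control replicate 2. The 2 higher there, named after their values were seen, were Tmem100 (0.16) and Atoh8 (0.02), which respond to ALK1 signalling and were at -0.04 and -0.47 with all libraries. The homeobox gene Msx1 had 527, 878 and 437 normalised reads in the controls against 423 and 332 in Tbx1cko, below every control, and differed by -0.65 on the log2 scale, or by -0.36 with control replicate 2 left out. Hey1 and Hey2, which also respond to Notch, differed by -0.45 and -0.27, and by -0.17 and -0.38 without that library. Of the E protein genes whose products Id proteins bind, Tcf3 had 2126, 3367 and 1816 in the controls against 1790 and 1615 in Tbx1cko. The fitted log2 difference was -0.47, and -0.21 with control replicate 2 left out. Tcf4 and Tcf12 differed by 0.26 and 0.12 with all libraries and by -0.02 and -0.13 without it, so the sign of both turned on that library.

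**Figure D5:**
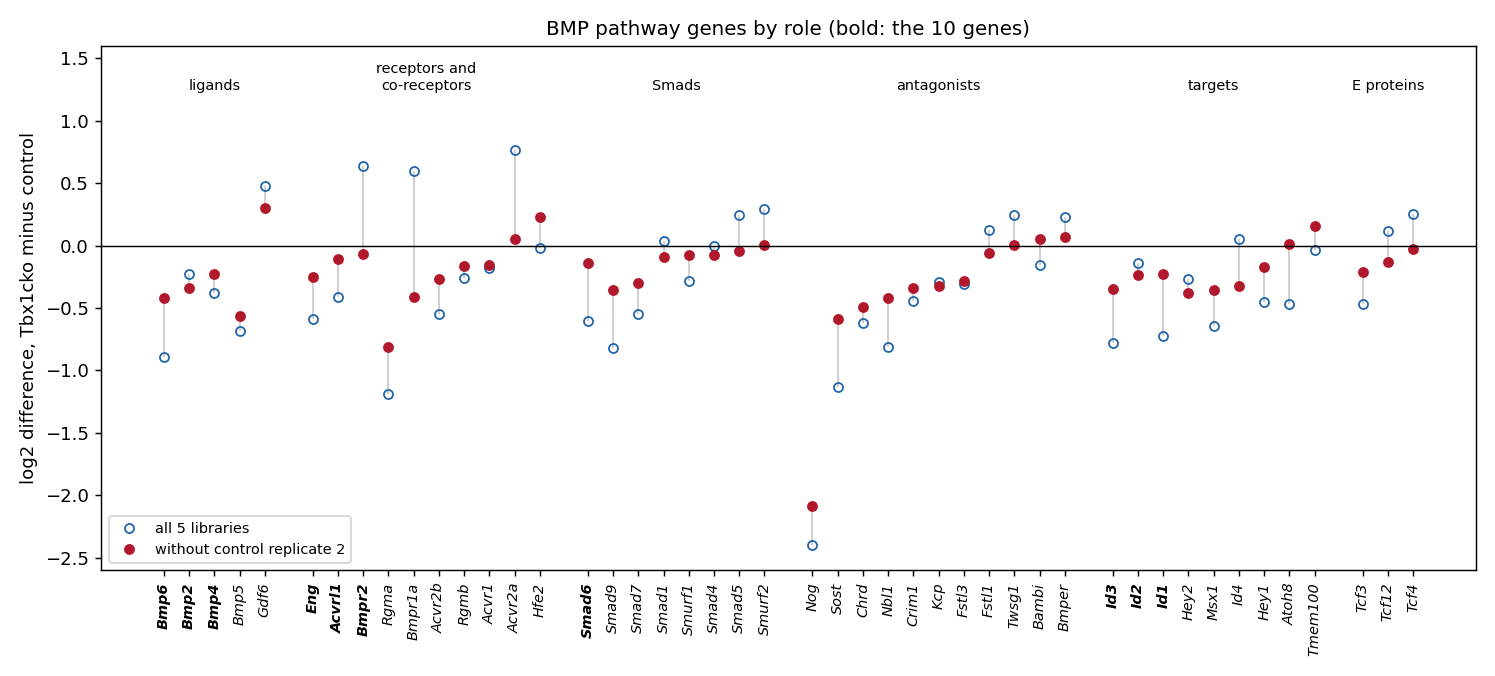
Log2 difference, Tbx1cko minus control (vertical axis), of the tested pathway genes grouped by role, with the 10 genes followed here in bold, for all 5 libraries (open blue) and without control replicate 2 (filled red). Most red points lie below 0 and within 0.5 of it, Nog lies at -2.08, and Bmpr2, Bmpr1a and Acvr2a show the longest lines between the fits.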

How the data were processed

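Per the submitters' processing notes, STAR 2.5.2b, DESeq, DESeq2 1.20.0 and R 3.5.1 were used with GRCm38 (mm10). The sources used here do not state the counting tool, its annotation or its strand setting. The deposited values are a signal made by the authors, read counts per gene divided by a size factor of each library. Whole reads were recovered from them, within a tolerance of 0.01, and each gene had at least 12 reads in all. The 10 genes and all gene lists were chosen with earlier results of these data known.

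Genes with a mean of at least 10 normalised reads were tested on log2(value + 1) with limma 3.58.1 (R 4.3.3), with a mean-variance trend and Benjamini-Hochberg adjustment over all 14339 genes. The deposited signal is not a count, so edgeR 4.0.16 and DESeq2 1.42.0 were alternatives on the recovered reads. Fold changes on this scale understate those of low genes. The GC correction subtracted from each library a loess curve (span 0.3) of its deviation on transcript GC content. Intervals are 95%. Gene models matched 16741 of 17638 symbols. The text names all 10 genes, up to 3 further genes of each role list with the smallest unadjusted p, and the 3 genes nearest in pattern to Id1 and to Eng. The fit was also run on simulated counts. These lacked the shift of control replicate 2 with GC content, so that run does not show how the fit performs here. Alternatives covered pseudocount, filter, scaling, sample weights, GC content, a replicate block and each library left out.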

Additional observations from a re-analysis of the deposited data

How the results depend on the processing

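None of the 10 BMP genes passed the threshold under any of 23 alternatives. The smallest adjusted p was 0.0657, for Bmp6 in limma with sample weights, a fit whose weight estimation stopped before converging. Over all genes, limma called 0 with all libraries, 760 with sample weights and 0 to 3 when each library was left out in turn, the 3 without control replicate 2. DESeq2 called 4 with all libraries, and with control replicate 2 left out DESeq2 called 78 and edgeR 1. The cause of these differences was not tested. The replicate block called 3 genes and gave a median of -0.70 for the 10 BMP genes. Deviations of same-numbered libraries from their group means had correlations of -0.06 and -0.05. With 2 Tbx1cko libraries those deviations mirror each other, so these values cannot show whether the numbers pair the libraries.

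Bmpr2 changed sign to -0.12 with GC correction, -0.17 with GC correction and control replicate 2 left out, -0.0804 with edgeR and -0.0790 with DESeq2 without control replicate 2, and -0.0644 with limma without it; leaving out each library in turn gave -0.0644 to 1.05. Smad6 turned to 0.0363 with GC correction and control replicate 2 left out. The other 8 genes kept their direction in 22 settings, and the median of the 10 lay between -0.70 and -0.18. These settings are not separate checks of direction. Those that changed only the filter, the trend or the prior cannot move a difference. The replicate block gave the same differences as leaving out control replicate 3. With 2 and 3 libraries a group, the spread between libraries is poorly known. Reads per gene and library were 587 to 66111, a counting error of 0.389% to 4.13%. Which of these limits the comparisons was not tested.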

Other observations

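Besides Bmpr2, 2 other BMP receptor genes were low in control replicate 2, named after their values were seen. Bmpr1a, a type I receptor gene, stood at 259, 32.2 and 285 normalised reads in the controls against 185 and 225 in Tbx1cko. The fitted log2 difference was 0.60 with all libraries and -0.41 (SE 0.183, limma adjusted p = 0.664) without control replicate 2. Acvr2a, a type II receptor gene, had 731, 171 and 771 in the controls against 787 and 773 in Tbx1cko, and its difference was 0.77 with all libraries and 0.06 without control replicate 2. The ratio of Acvrl1 to Bmpr2 normalised reads was 0.999, 7.02 and 0.752 in the controls against 0.937 and 0.755 in Tbx1cko.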
